A study of Bubalus bubalis with 9 samples.

Results

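The metalloproteinases MMP, ADAM and ADAMTS and their inhibitors, the TIMPs, were followed in granulosa cells of Chinese buffalo (Bubalus bubalis) across 3 states of the ovarian follicle. Members were all genes of the authors' deposited tables whose identifier begins with MMP, ADAM or TIMP and a number, or with ADAMTS; 67 of 20801 genes met this rule. They comprised 20 MMP, 18 ADAM, 24 ADAMTS or ADAMTS-like and 4 TIMP genes, and MMP24OS, a gene on the opposite strand at MMP24 that encodes no MMP. Follicles were healthy, in early atresia or in late atresia, with 3 samples of granulosa cells from each state and no treatment, genotype or age named in the labels. The labels do not say whether samples came from separate animals or follicles, so the p-values reflect the scatter of these samples alone, and it may be technical.

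Granulosa cells line the follicle and feed the oocyte, and atresia is the degeneration by which most follicles are lost. Secreted and membrane-bound metalloproteinases cut collagens, proteoglycans and other matrix proteins, which lets the follicle wall expand, rupture at ovulation or be dismantled. MMPs are made as inactive proenzymes that lose a propeptide. ADAMs sit in the cell membrane and shed the outer parts of cytokines, growth factors and receptors. ADAMTS enzymes are secreted, bind the matrix and process procollagens or cut large proteoglycans such as versican. TIMPs are small secreted proteins that block the active site of these enzymes.

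For each pair of states, the authors' deposited tables list every gene with the mean normalized read count of both groups, the log2 of their ratio (log2 change below) and a p-value before and after adjustment. Single samples have no values of their own there, so their overlap is not described, and library depth is unknown. Each ± is a standard error worked back from the log2 change and its p, taking that p as one of a two-sided normal test. A group's means added up to 13141820 to 14490733 over all genes in the authors' deposited tables. A gene is said to have risen or fallen where its deposited adjusted p was below 0.05. The mean of a group differed between tables by a nearly constant factor (median ratio 1.03 for healthy follicles), so each fold change is given with the means of its own table. All 9 granulosa markers that were looked for, among them INHA, FSHR and FOXL2, had means above 0 in all 3 groups. This does not identify the cells, since 16074 of 17386 tested genes were above 0 in both healthy and early atretic follicles. Because these are bulk samples, fewer cells of a type and less RNA per cell cannot be told apart.

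More members rose than fell in early atresia, and most passed in neither direction. Of 61 tested members, 24 rose and 2 fell in early atresia in the authors' deposited table (39.3% and 3.28%), against 8.59% and 4.35% of all 17386 tested genes. At an unadjusted p below 0.05, 28 members were higher and 4 lower, against 13.7% and 9.82% of all genes. The median log2 change of the tested members was 1.06, against 0.02 over all tested genes. Leaving out the 3 members with a group listed at 0, it was 1.02. In late atresia against healthy follicles, 13 of 60 tested members rose and none fell (21.7% and 0%), against 3.98% and 0.397% of the 17366 genes that the authors' deposited table tests. At an unadjusted p below 0.05 there, 20 members were higher and 0 lower, against 9.2% and 2.96% of all genes. The median log2 change was 0.87 for these members and 0.03 over all genes. Members were also limited to those whose higher group mean was at or above that of the median tested gene. Of these, 15 of 24 rose in early atresia (62.5%, against 9.94% of all such genes) and 6 of 22 in late atresia (27.3%, against 3.95%). A member can pass this filter through its raised atretic mean alone. MMP2 did so in early atresia, with a healthy mean of 47.9 against a cut of 197. These shares are therefore not a comparison at like expression in healthy follicles. With a minimum change of 1 on the log2 scale, 1 member fell in early atresia, against 1.81% of all genes. Both comparisons use the same healthy samples, so their values are not independent. These shares describe the 4 families and do not show that they stand apart from other genes of like expression.

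**Figure D1:**
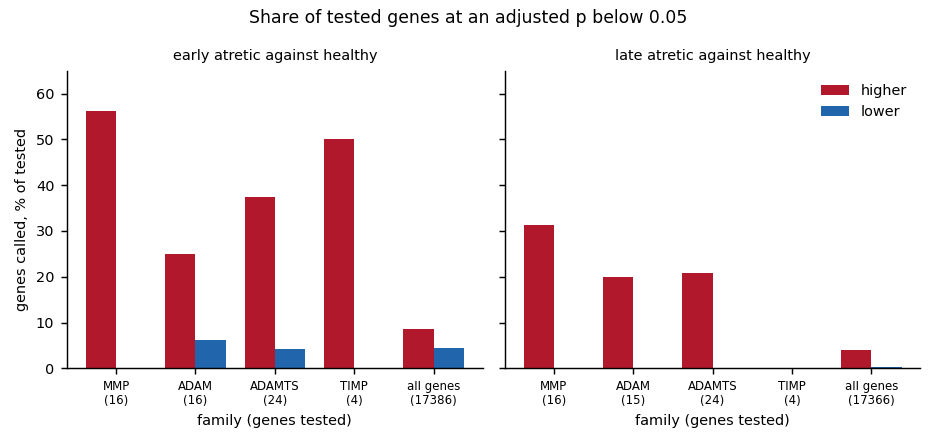
Share of tested genes with an adjusted p below 0.05 (y axis, percent), higher or lower than in healthy follicles, for each gene family and for all genes (number tested in brackets). In early atresia 56.2% of tested MMPs were higher, against 8.59% of all genes. In late atresia no TIMP passed, against 3.98% of all genes higher and 0.397% lower.

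Not all members were measurable. Of the 67 members, 19 had a mean below 10 normalized counts in every group, and 6 of these (MMP3, MMP8, MMP20, MMP27, ADAM2 and ADAM29) were listed at 0 in all groups. Nothing in the tables points to a filter on low values before the tests, since genes with means below 1 have a p-value. ADAM23 alone has a fold change without a p-value, in both comparisons with late atresia. ADAM23, whose protein has no catalytic site, had means of 15.9 in healthy follicles and 111 in late atresia in the authors' deposited table, with no test of the difference.

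Among the MMPs, 9 of 16 tested members rose in early atresia and 5 in late atresia, and none fell in either. Over all tested genes, 8.59% rose and 4.35% fell in early atresia, and 3.98% and 0.397% in late atresia. In a family this small, the absence of falls does not set it apart from those shares. Gelatinases cut denatured collagen and basement membrane collagen, and both rose. MMP2, gelatinase A, averaged 47.9 in healthy follicles and 285.5 in early atresia in the authors' deposited table, a log2 change of 2.57 ± 0.65 (adjusted p = 0.00141). In the comparison with late atresia, MMP2 had means of 46.5 and 494 in the authors' deposited table, a log2 change of 3.41 ± 0.46 (adjusted p = 6.48e-11). MMP9, gelatinase B, which neutrophils and macrophages also store or make, was low in healthy follicles. Its mean rose from 6.56 to 99.9 in early atresia in the authors' deposited table, by 3.93 ± 0.66 on the log2 scale (adjusted p = 2.81e-07), and from 6.37 to 68.1 in late atresia, by 3.42 ± 0.83 (adjusted p = 0.00233). Both gelatinases were thus at least 5 times as high in either atretic state as in healthy follicles, with MMP2 at its highest mean in late and MMP9 in early atresia.

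MMP19, a matrix protease of the ovary and other tissues with a basement membrane substrate range, had the largest rise among the MMPs in late atresia. Its means were 39.3 in healthy follicles and 449 in early atresia in the authors' deposited table, a rise of 3.51 ± 0.57 on the log2 scale (adjusted p = 9.35e-08). Late atresia had a mean of 686 against 38.2 in the authors' deposited table, a rise of MMP19 by 4.16 ± 0.73 (adjusted p = 2.25e-06). MMP23B, a small membrane-anchored MMP without the hemopexin domain of most family members, had the smallest p of all members in the early comparison. It rose from 47.9 to 334 in early atresia in the authors' deposited table, by 2.80 ± 0.30 (adjusted p = 3.64e-17), and from 46.5 to 182.5 in late atresia, by 1.97 ± 0.49 (adjusted p = 0.00308). MMP12, the elastase of macrophages, rose in the authors' deposited table from 7.73 to 67.3 in early atresia, by 3.12 ± 1.12 (adjusted p = 0.0426), and from 7.50 to 50.8 in late atresia, by 2.75 ± 0.89 (adjusted p = 0.0482). Both MMP12 calls lie close to the threshold. MMP11, stromelysin-3, which has a furin cleavage site and leaves the cell in active form, rose from 67.5 to 185 in early atresia in the authors' deposited table, by 1.46 ± 0.36 (adjusted p = 0.00101). Its late atretic mean was 127, with a log2 change of 0.95 ± 0.44 in the authors' deposited table that did not pass (adjusted p = 0.305).

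Of 6 membrane-type MMPs, which act at the cell surface, 3 rose in early and none in late atresia. Over all tested genes, 8.59% rose in early and 3.98% in late atresia. With so few genes, the lack of a late rise does not set them apart. MMP14, the transmembrane enzyme that activates the MMP2 proenzyme, changed by a small but precisely measured amount. Its means were 3787 in healthy follicles and 5805 in early atresia in the authors' deposited table, a rise of 0.62 ± 0.14 on the log2 scale, or 1.53-fold (adjusted p = 0.000222). In late atresia the MMP14 mean was 4545 against 3682, a log2 change of 0.30 ± 0.24 in the authors' deposited table (95% interval -0.17 to 0.78). MMP15, also a transmembrane MMP, rose from 104 to 226 in early atresia, by 1.11 ± 0.22 in the authors' deposited table (adjusted p = 2.91e-05). MMP17, which a lipid anchor holds in the membrane, rose from 165 to 328.5, by 0.99 ± 0.34 in the authors' deposited table (adjusted p = 0.0311). Late atretic means of MMP15 and MMP17 were 132 and 157 against 101 and 160 in healthy follicles in the authors' deposited table. The MMP17 means of late atretic and healthy follicles almost coincided, at a log2 change of -0.03 ± 0.32 in the authors' deposited table. MMP16 (log2 change -0.19 ± 0.32 in early atresia), MMP24 (2.06 ± 1.70) and MMP25 (2.97 ± 1.14, adjusted p = 0.0656) missed the threshold in the authors' deposited table. MMP24 and MMP24OS overlap in the RefSeq gene table, and since strand-specific counting is not stated their reads cannot be told apart. All means of MMP24 and MMP24OS were below 10.

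The classical collagenases and matrilysin were close to undetected. MMP1 had means of 11.0 in healthy follicles, 4.45 in early and 5.15 in late atresia in the authors' deposited tables, with errors (1.80 and 2.05 on the log2 scale) that exceed both fold changes. MMP13 stayed at or below 1.32 in every group of the authors' deposited tables. MMP7, matrilysin, was listed at 0 in healthy follicles and at 0.87 in early atresia. MMP28, epilysin, averaged 1.72 in healthy follicles and 9.31 in early atresia, and 15.8 against 1.67 in late atresia (log2 change 3.23 ± 1.36, adjusted p = 0.214), in the authors' deposited tables. At such means and errors, a difference of several fold could not be shown.

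**Figure D2:**
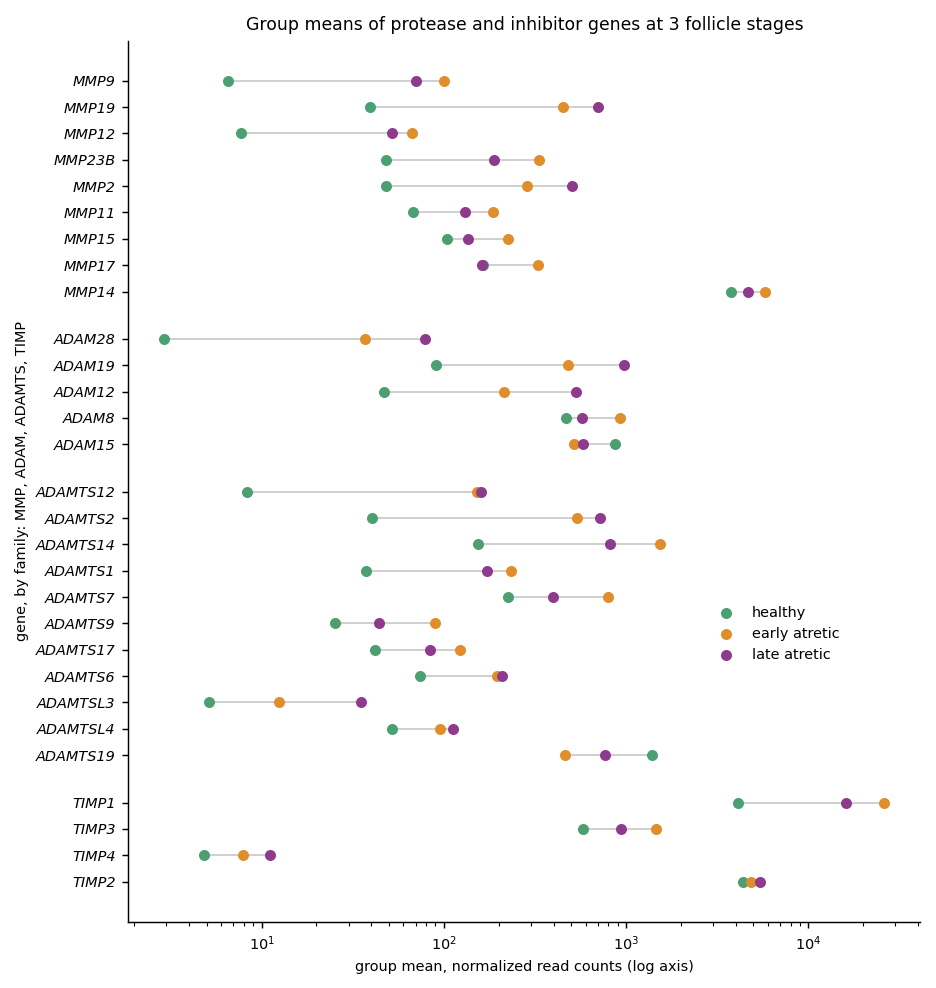
Group means in normalized read counts (x axis, log scale) at 3 follicle stages for the 27 members that passed in at least 1 comparison and for all 4 TIMPs, each dot being the mean of 1 group. Healthy and early atretic means come from the same table, and late atretic means were multiplied by the ratio between the healthy means of both tables (median 1.03). Healthy follicles had the lowest mean for most genes, and the highest for ADAM15 and ADAMTS19.

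Among the ADAMs, 9 estimates were above and 7 below 0 in early atresia. Of 16 tested members, 4 rose and 1 fell in early atresia, against 8.59% and 4.35% of all tested genes. In late atresia 3 of 15 rose, against 3.98%. A single fall among so few genes does not set the family apart from the background. ADAM12 and ADAM19, the meltrins, are catalytically active ADAMs expressed in mesenchymal tissues. ADAM19 averaged 90.3 in healthy follicles and 479 in early atresia in the authors' deposited table, a rise of 2.40 ± 0.43 on the log2 scale (adjusted p = 1.36e-06). In the late comparison the ADAM19 means were 87.7 and 942 in the authors' deposited table, a rise of 3.42 ± 0.54 (adjusted p = 7.59e-08). ADAM12 rose from 47.1 to 214 in early atresia, by 2.18 ± 0.76 in the authors' deposited table (adjusted p = 0.0345), and from 45.8 to 514 in late atresia, by 3.49 ± 0.70 (adjusted p = 7.21e-05). For both meltrins the group mean was lowest in healthy follicles and highest in late atresia.

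ADAM28, a protease of lymphocytes and epithelia, was barely present in healthy follicles. It rose from 2.92 to 37.1 in early atresia, by 3.69 ± 1.19 in the authors' deposited table (adjusted p = 0.0191), and from 2.85 to 76.3 in late atresia, by 4.76 ± 1.30 (adjusted p = 0.00979). ADAM8, a protease best known from myeloid cells, rose in early atresia from 467 to 922, by 0.98 ± 0.24 in the authors' deposited table (adjusted p = 0.000866). Its late atretic mean was 556 against 454, a log2 change of 0.29 ± 0.40 in the authors' deposited table. ADAM15, which binds integrins through its disintegrin domain, fell from 871 to 520 in early atresia, by 0.75 ± 0.18 in the authors' deposited table (adjusted p = 0.000872). In late atresia the ADAM15 mean was 563 against 847 (log2 change -0.59 ± 0.39, adjusted p = 0.652) in the authors' deposited table.

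Neither of the main sheddases passed in any comparison. ADAM10, which starts the cleavage of Notch receptors, averaged 1912 in healthy follicles and 1809 in early atresia in the authors' deposited table, a log2 change of -0.08 with a 95% interval of -0.39 to 0.23. In late atresia the ADAM10 mean was 1954 against 1857 in the authors' deposited table (interval -0.32 to 0.46). ADAM17, which releases TNF and several ligands of the EGF receptor, averaged 2427 in healthy follicles and 1784 in early atresia, a log2 change of -0.44 ± 0.20 in the authors' deposited table that did not pass (adjusted p = 0.131). In late atresia the ADAM17 mean was 2082 against 2358 in the authors' deposited table, with an interval of -0.69 to 0.33. Both ADAM10 intervals lie within a 1.5-fold change in either direction. ADAM9, another membrane protease, had a log2 change of -0.50 ± 0.29 in early and 0.35 ± 0.38 in late atresia in the authors' deposited tables. ADAM33 had means of 12.1, 50.2 and 16.1 in healthy follicles, early and late atresia in the authors' deposited tables, with an adjusted p of 0.0651 in the early comparison. Of the 7 ADAMs that lack a catalytic site, 5 were tested in early atresia and none passed. That count does not set these ADAMs apart, since 8.59% of all tested genes rose there and 4.35% fell. ADAM11, which lacks a catalytic site, averaged 36.8 in healthy follicles and 49.5 in early atresia, and 19.4 against 35.8 in late atresia, in the authors' deposited tables. ADAM7, ADAM20, ADAM21 and ADAM22 stayed below 10 normalized counts.

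The ADAMTS genes were the largest family. Of 24 tested members, 9 rose and 1 fell in early atresia, against 8.59% and 4.35% of all tested genes. In late atresia 5 rose, against 3.98%. The single fall is a count near the background. The procollagen N-proteinases ADAMTS2, ADAMTS3 and ADAMTS14 remove the amino-terminal propeptide of fibrillar procollagens, and they did not move as a group. ADAMTS2 rose from 40.4 to 538 in early atresia, by 3.73 ± 0.48 in the authors' deposited table (adjusted p = 4.81e-12), and from 39.3 to 697 in late atresia, by 4.15 ± 0.48 (adjusted p = 3.83e-15). ADAMTS14 averaged 155 in healthy follicles and 1541 in early atresia in the authors' deposited table, a rise of 3.32 ± 1.14 with a wide error (adjusted p = 0.0330). Its late atretic mean was 792, with a log2 change of 2.40 ± 1.41 that missed the threshold in the authors' deposited table (adjusted p = 0.556). ADAMTS3, which also processes the lymphatic growth factor VEGFC, averaged 973 in healthy follicles and 539 in early atresia, a log2 change of -0.85 ± 0.35 in the authors' deposited table (adjusted p = 0.0932). The estimate for ADAMTS3 was therefore on the other side of 0 from those of its relatives, without passing the threshold.

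ADAMTS12 and ADAMTS7, which cut cartilage oligomeric matrix protein, both rose in early atresia. ADAMTS12 had the largest log2 change of the ADAMTS genes in both comparisons. Its mean went from 8.32 to 152 in early atresia, by 4.19 ± 0.74 in the authors' deposited table (adjusted p = 1.45e-06), and from 8.09 to 155 in late atresia, by 4.26 ± 0.54 (adjusted p = 2.11e-12). That rank rests on a low healthy mean: with 10 added to both means, the early log2 ratio was 3.14 for ADAMTS12 and 3.44 for ADAMTS2. ADAMTS7 rose from 225 to 794 in early atresia, by 1.82 ± 0.39 in the authors' deposited table (adjusted p = 0.00012), and its late atretic mean was 388 (log2 change 0.82 ± 0.66, adjusted p = 0.791).

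Of 7 proteoglycanases, 2 rose in early and 1 in late atresia, against 8.59% and 3.98% of all tested genes. Counts this small do not set the group apart from the background. ADAMTS1, a versican-cleaving enzyme that the progesterone receptor induces in granulosa cells before ovulation in mice, rose from 37.5 to 234 in early atresia, by 2.64 ± 0.50 in the authors' deposited table (adjusted p = 6.64e-06). In late atresia its mean was 168 against 36.4, a log2 change of 2.21 ± 0.57 in the authors' deposited table (adjusted p = 0.00542). ADAMTS9, a close relative that also cuts versican, rose from 25.3 to 88.9 in early atresia, by 1.81 ± 0.62 in the authors' deposited table (adjusted p = 0.0322). Its late atretic mean was 42.6 against 24.6, a log2 change of 0.79 ± 0.80 in the authors' deposited table. ADAMTS5, aggrecanase-2, had means of 4.66 in healthy follicles, 24.1 in early and 18.7 in late atresia in the authors' deposited tables, and passed in neither comparison (adjusted p = 0.121 and 0.386). ADAMTS4, aggrecanase-1, had means of 155, 96.5 and 220 in the 3 states and wide errors, at a log2 change of -0.68 ± 1.28 in early and 0.55 ± 1.48 in late atresia in the authors' deposited tables. ADAMTS8 and ADAMTS15 had log2 changes of 0.47 ± 0.68 and -0.27 ± 0.59 in early atresia in the authors' deposited table. ADAMTS20 stayed below 3 normalized counts.

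ADAMTS6 and ADAMTS17, enzymes linked to fibrillin microfibrils, rose together in early atresia. ADAMTS6 rose from 73.8 to 196 in early atresia, by 1.41 ± 0.32 in the authors' deposited table (adjusted p = 0.000258), and to 202 from 71.7 in late atresia, by 1.49 ± 0.48 (adjusted p = 0.0482). ADAMTS17 rose from 42.1 to 123 in early atresia, by 1.54 ± 0.32 in the authors' deposited table (adjusted p = 7.24e-05), and its late atretic mean was 81.5 (log2 change 0.99 ± 0.45, adjusted p = 0.283). ADAMTS10, a further member of this group, had log2 changes of 0.48 ± 0.21 and 0.43 ± 0.29 in early and late atresia in the authors' deposited tables, short of the threshold. ADAMTS13, which cuts von Willebrand factor, ADAMTS16 and ADAMTS18 stayed below 4 normalized counts. ADAMTS19 was the ADAMTS gene that fell. Its mean was 1385 in healthy follicles and 463 in early atresia in the authors' deposited table, a fall of 1.58 ± 0.40 on the log2 scale (log2 change -1.58, adjusted p = 0.00152), and 743 against 1347 in late atresia (log2 change -0.86 ± 0.75, adjusted p = 0.838).

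The ADAMTS-like genes encode matrix proteins without a protease domain. ADAMTSL4, which binds fibrillin, rose from 52.0 to 95.3 in early atresia, by 0.88 ± 0.31 in the authors' deposited table (adjusted p = 0.0428). ADAMTSL3 averaged 5.11 in healthy follicles and 12.4 in early atresia, a log2 change of 1.27 ± 0.81 in the authors' deposited table (adjusted p = 0.364). In late atresia ADAMTSL3 rose to 34.3 from 4.96, by 2.78 ± 0.73 in the authors' deposited table (adjusted p = 0.00605). The others, ADAMTSL1, ADAMTSL2 and ADAMTSL5, did not pass in either comparison.

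The inhibitors moved unequally. TIMP1, a secreted inhibitor of most MMPs, averaged 4129 in healthy follicles and 26207 in early atresia in the authors' deposited table, a rise of 2.67 ± 0.87 on the log2 scale or 6.35-fold (adjusted p = 0.0212). In late atresia its mean was 15769 against 4000 in the authors' deposited table, a log2 change of 1.98 ± 0.76 with an interval of 0.49 to 3.46 that did not pass after adjustment (adjusted p = 0.139). TIMP3, which is bound to the matrix and also inhibits ADAM17 and ADAMTS enzymes, rose from 581 to 1456 in early atresia, by 1.33 ± 0.21 in the authors' deposited table (adjusted p = 2.73e-08). Its late atretic mean was 918 against 564, a log2 change of 0.70 ± 0.33 in the authors' deposited table (adjusted p = 0.334). TIMP2, which inhibits MMPs and also links the MMP2 proenzyme to MMP14, averaged 4393 in healthy follicles and 4861 in early atresia in the authors' deposited table, with an interval of -0.56 to 0.85 for the log2 change. In late atresia the TIMP2 mean was 5257 against 4265 in the authors' deposited table, with an interval of -0.62 to 1.23. TIMP4 stayed at or below 11.3 in all tables.

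Family sums of group means followed the members with the most reads, which depends on transcript length as well as on transcript number. The 4 TIMPs summed to 9107.5 in healthy follicles and 32531 in early atresia in the authors' deposited table, a ratio of 3.57. Without TIMP1 that ratio was 1.27, and TIMP1 made up 80.6% of the early atretic sum. The MMPs summed to 4569 and 8062, a ratio of 1.76 in the authors' deposited table. Without MMP14, which held 82.9% of the healthy sum, the MMP ratio was 2.88. The ADAM sum hardly moved, with a ratio of 0.951, and the ADAMTS sum had a ratio of 1.51. In late against healthy follicles the ratios in the authors' deposited table were 2.49 for TIMPs, 1.5 for MMPs, 1.21 for ADAMs and 1.39 for ADAMTS genes. These sums have no replicate error here and were not tested.

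**Figure D3:**
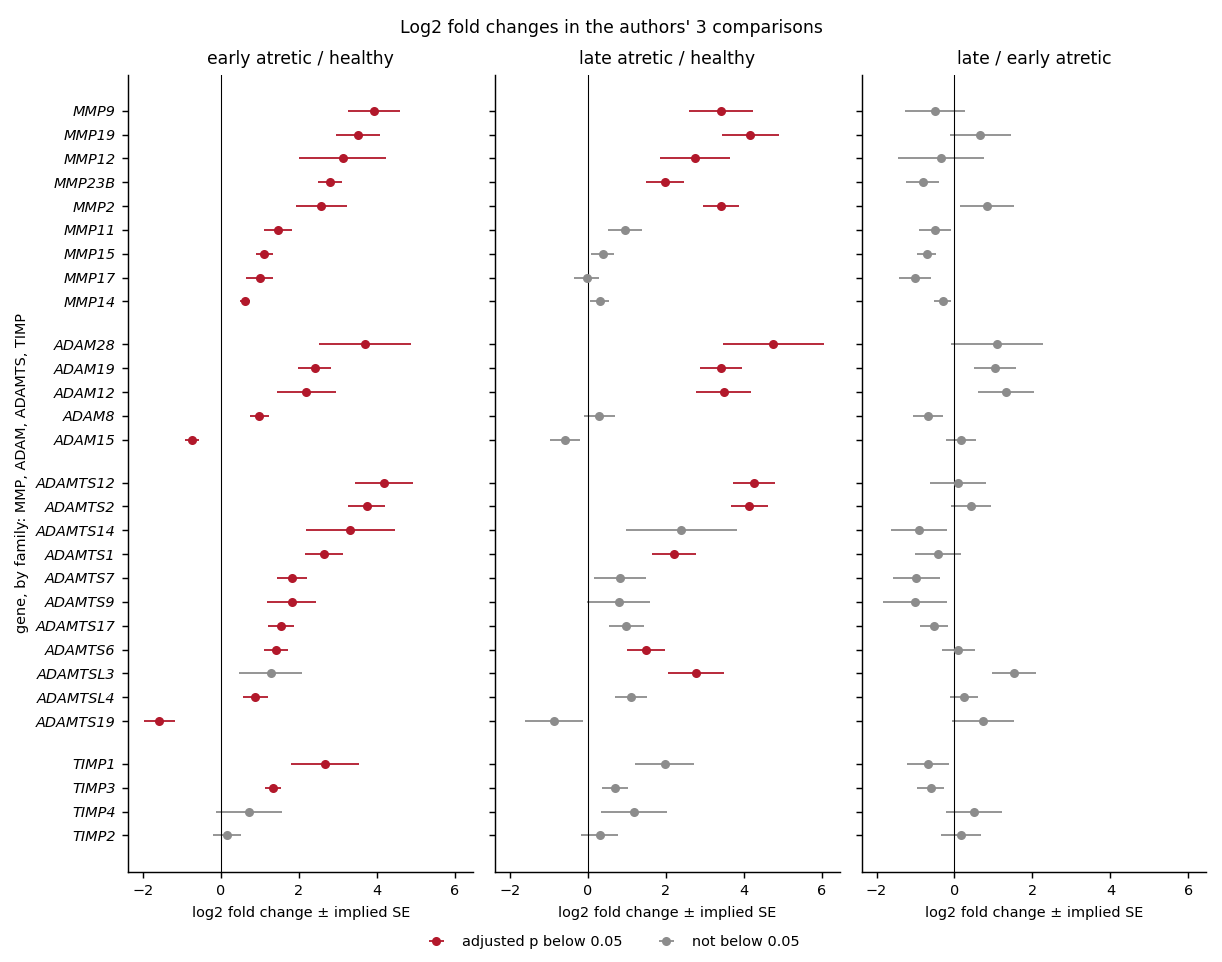
Log2 change (x axis) with the implied standard error as bars for the 27 members that passed in at least 1 comparison and the other TIMPs, in early atretic against healthy (left), late atretic against healthy (middle) and late against early atresia (right), red where the adjusted p was below 0.05. In the right panel no member passed.

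No member passed in the direct comparison of late with early atresia. Of 60 tested members, 0 rose and 0 fell in the authors' deposited table, against 0.0171% and 0.0912% of all 17552 tested genes. At an unadjusted p below 0.05, 2 members were higher and 3 lower (3.33% and 5.0%), against 2.36% and 3.0% of all genes. The 5 were ADAMTSL3 (log2 change 1.52 ± 0.56), ADAM9 (0.86 ± 0.39), MMP15 (-0.72 ± 0.26), MMP17 (-1.01 ± 0.41) and ADAM11 (-1.30 ± 0.52) in the authors' deposited table, each with an adjusted p of 0.518 or more. A member that passed in early but not in late atresia, such as MMP14, TIMP1 or TIMP3, is therefore not shown to differ between both states. TIMP1 had means of 16563 in late and 26479 in early atresia in the authors' deposited table, with an interval of -1.73 to 0.37 for the log2 change. Median log2 changes were -0.42 for 16 MMPs, 0.17 for 15 ADAMs, 0.09 for 24 ADAMTS genes and 0.06 over all genes. The MMP estimate was below 0 in 12 of 16 members and the ADAM estimate above 0 in 11 of 15. Over all 17552 tested genes, 55.3% of the estimates were above 0. These signs include barely detected genes: MMP7, MMP13, ADAM20 and ADAM21 had means at or below 1.32 in this comparison. A difference between the families was not tested.

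The precision of the estimates varied widely among members. In the early comparison, 29 members had a mean of at least 100 in the higher group, and their median implied error was 0.35 on the log2 scale, against 0.23 for all such genes. MMP14, with an error of 0.14, passed at a 1.53-fold change, whereas TIMP1, with more reads, had an error of 0.87. In the late comparison the corresponding medians were 0.465 and 0.30.

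Genes that control these enzymes, and their substrates, were followed from lists drawn up for their known roles. Of 19 tested activators and regulators, 8 rose and 1 fell in early atresia, against 8.59% and 4.35% of all tested genes, and 5 rose in late atresia, against 3.98%. Their median log2 change was 0.76 in early and 0.57 in late atresia, against 0.02 and 0.03 over all genes. PLAUR and PLAT act in plasminogen activation, the proteolytic system that can activate MMP proenzymes, and both rose in early and in late atresia. PLAUR, the urokinase receptor, rose from 58.5 to 537 in early atresia, by 3.20 ± 0.54 in the authors' deposited table, and by 3.79 ± 0.54 in late atresia. PLAT, tissue plasminogen activator, rose from 231 to 807 in early atresia, by 1.81 ± 0.31 in the authors' deposited table, and by 2.89 ± 0.53 in late atresia. SERPINE2, a serine protease inhibitor, was the regulator that fell, from 245253 to 106490 in early atresia (log2 change -1.20 ± 0.30, adjusted p = 0.00144) in the authors' deposited table. FURIN, which removes the propeptide of ADAMs, ADAMTS enzymes and membrane-type MMPs, rose by 0.58 ± 0.17 in early atresia in the authors' deposited table (adjusted p = 0.0104). RECK, a membrane inhibitor of MMPs, had a log2 change of -0.33 in early atresia in the authors' deposited table, short of the threshold (adjusted p = 0.259).

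Among 9 partners that bring ADAM10 or ADAM17 to the cell surface, 1 rose in each comparison with healthy follicles, a count near the 8.59% and 3.98% of all tested genes. It was TSPAN15, a tetraspanin partner of ADAM10, whose mean rose from 30.8 to 190 in early atresia, by 2.63 ± 0.35 in the authors' deposited table (adjusted p = 3.13e-11), and from 29.9 to 106 in late atresia, by 1.83 ± 0.42 (adjusted p = 0.000867). The list's TSPAN10 was listed at 0 in healthy follicles. RHBDF2, which brings ADAM17 to the surface, had a log2 change of 1.21 in early atresia in the authors' deposited table (adjusted p = 0.154). Of 16 ADAM substrates, 4 rose in early atresia, against 8.59% of all tested genes, and 1 in late atresia, a count near the background of 3.98%. In early atresia, TNFRSF1B, SDC4 and TGFA were higher by log2 changes of 1.14 ± 0.29, 1.37 ± 0.35 and 3.09 ± 0.84 in the authors' deposited table. SDC1, a cell surface proteoglycan, rose by 4.43 ± 1.21 in early and 5.43 ± 0.76 in late atresia in the authors' deposited tables.

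Among substrates of ADAMTS enzymes, 5 of 13 tested genes rose and 1 fell in early atresia, against 8.59% and 4.35% of all tested genes. In late atresia 5 of 15 rose, against 3.98%, and 0 fell. COL3A1, a fibrillar collagen, rose from 273 to 3446 in early atresia in the authors' deposited table, by 3.66 ± 0.36, and from 265 to 5355 in late atresia, by 4.34 ± 0.38 (adjusted p = 5.83e-27). COL1A1 and COL1A2, the chains of type I collagen, rose by 3.12 ± 0.35 and 3.00 ± 0.36 in late atresia in the authors' deposited table. VCAN, which encodes versican, was the substrate that fell. Its mean was 107971 in healthy follicles and 38494 in early atresia in the authors' deposited table, a fall of 1.49 ± 0.31 on the log2 scale (log2 change -1.49, adjusted p = 5.16e-05), and 61494 against 105015 in late atresia (log2 change -0.77 ± 0.46, adjusted p = 0.564). The means of the versican-cleaving ADAMTS1 and ADAMTS9 were higher, and that of VCAN lower, in early atresia than in healthy follicles. None of the other proteoglycanases passed there. These are RNA values, so cleavage of versican was not measured, and a link between enzyme and substrate was not tested.

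Of 9 related proteases outside the rule used for members, none rose in either comparison. That count does not set them apart from the 8.59% and 3.98% of all tested genes. TLL2, a tolloid-like protease, fell from 12997 to 3275 in early atresia (log2 change -1.99 ± 0.39, adjusted p = 2.08e-05) in the authors' deposited table. BMP1, the procollagen C-proteinase, had a log2 change of 0.05 in early atresia in the authors' deposited table (adjusted p = 0.935), and ADAMDEC1 one of 1.02 (adjusted p = 0.399).

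Macrophage, fibroblast, neutrophil and endothelial lists held markers that rose beside these genes, and no tested theca marker did. Over all tested genes, 8.59% rose and 4.35% fell in early atresia, and 3.98% rose and 0.397% fell in late atresia. A count of 1 gene in lists this short does not set a list apart from these shares. Macrophage markers rose in 5 of 10 tested genes in early and 5 of 9 in late atresia. Their summed group means in the authors' deposited tables were 390 in healthy follicles and 2981.5 in early atresia, and 379 and 5842 in the late comparison. Fibroblast markers rose in 6 of 8 and 4 of 8 genes, with summed means of 2918 in healthy follicles and 12844 in early atresia, and 2830 and 16135 in the late comparison, in the authors' deposited tables. Neutrophil markers rose in 2 of 4 and 2 of 6 tested genes, and their summed mean went from 513 to 1812 in early atresia and from 500 to 707 in late atresia in the authors' deposited tables. Endothelial markers rose in 2 of 8 and 1 of 8 genes, with summed means of 2024 and 3005 in the early and 1966.5 and 1764 in the late comparison in the authors' deposited tables. VWF, which did not pass (adjusted p = 0.355), held most of the late endothelial sums, with means of 1722 in healthy follicles and 1174 in late atresia in the authors' deposited table. The median log2 change of the endothelial list there was 1.75. Of 4 tested theca markers 1 fell in early atresia, and of 5 none passed in late atresia, with sums of 4443.5 and 3149, and of 4327 and 3484, in the authors' deposited tables. ALPL, the theca marker that fell, held most of the healthy sums (2951 and 2873). STAR, which has no p-value in early atresia, had means of 57.9 in healthy follicles and 717 in early atresia. In the late comparison the STAR means were 56.5 and 1286 in the authors' deposited table (adjusted p = 0.0609). Granulosa markers fell in 7 of 9 genes in early and 0 of 9 in late atresia, with sums of 690298 and 171300.5, and of 670228 and 310901, in the authors' deposited tables. No marker used of these 6 lists was at 0 in any group. CD163, S100A12, CYP17A1, HBA and HBB were not analysed here; COL1A1 and COL1A2 are in both the fibroblast and the ADAMTS substrate list, and of the red cell list ALAS2 was used alone, at means below 3. The part of these cells in the protease and TIMP values was not tested.

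**Figure D4:**
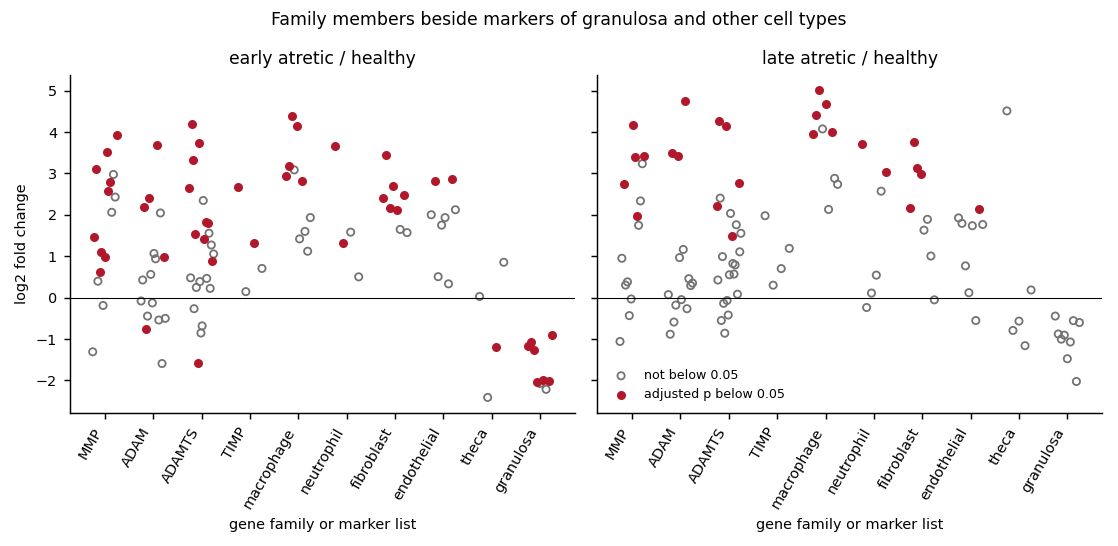
Log2 change (y axis) of each tested gene with means above 0 in both groups, for the 4 families and for marker lists of 6 cell types, in early (left) and late (right) atretic against healthy follicles; red dots have an adjusted p below 0.05. In early atresia 5 of 10 macrophage and 6 of 8 fibroblast markers were higher, against 8.59% of all tested genes. There, 7 of 9 granulosa markers were lower, against 4.35% of all tested genes, and in late atresia no granulosa marker passed.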

How the data were processed

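Granulosa cell RNA of 9 samples was isolated with Trizol and made into Illumina libraries, per the labels' protocols. The aligner Bowtie (version 0.12.2) and 2 mouse assemblies, mm8 and mm9, appear without a role in the submitters' processing notes. The sources used here give no counter, annotation or test tool. The 3 deposited tables, 1 per comparison, hold a mean read count per group per the file headers, read here as a normalized signal that the authors scaled table by table. The log2 fold change is the authors' own, per the file headers, and matched the log2 ratio of both means to within 0.01 where both exceeded 50. The p-value and adjusted p are the authors' deposited values, and the adjustment equalled that of Benjamini and Hochberg over unique genes to a relative difference of 7.72e-05.

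Of 21253 rows, 452 repeated another row and were dropped. Symbols were taken from gene identifiers; 66 of 67 members are also in the RefSeq gene table of assembly NDDB_SH_1, used for names and gene order, and list genes held under a LOC number were found through it. The standard error was the size of the log2 change divided by the z value of the deposited p, tested on simulated data (Python 3.11.15, SciPy 1.17.1, pandas 2.3.3). It assumes a two-sided normal test, which the sources do not state. No count model could be fitted, because the tables hold no values per sample; 0 per-sample columns were left out. Depth per library is unknown, so precision is given by the implied error alone.

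Members, gene lists and the rule for named genes were chosen with earlier results of these data known. Named were all members with an adjusted p below 0.05 in any comparison and 18 landmark members, and of each pathway list the 3 with the smallest adjusted p in each comparison with healthy follicles where any passed; 1 gene that this rule names is not reported here. RECK, FURIN, SERPINE2, PLAU, PLG, TSPAN10, RHBDF2, BMP1 and ADAMDEC1, and the members named beyond this, were chosen after their values were seen. Alternatives were an adjusted p below 0.01, a minimum log2 fold change of 1, a filter at the median mean, readjustment over genes with a mean of at least 10, recentring, and pseudocounts of 1 and 10. Sequences of the members were not used here.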

Additional observations from a re-analysis of the deposited data

How the results depend on the processing

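The counts of members that passed kept within 1.5 times their value under the alternatives, with 3 exceptions. Limited to genes whose higher mean reached the median, 15 in place of 24 members were higher in early and 6 in place of 13 in late atretic than in healthy follicles, since fewer members (24 and 22) have such a mean; the same filter left 9.94% and 3.95% of all genes higher. With a minimum log2 change of 1 besides, 1 in place of 2 members was lower in early atresia (1.81% of all genes). No alternative gave a call in late against early atresia, where all counts stayed at 0. Recentring on the median of the better expressed genes moved fold changes by at most 0.06 on the log2 scale and changed no call of a named member; the late atretic fold change of MMP17, which had not passed, went from -0.03 to 0.0011. A pseudocount of 10 in place of none moved 10 of 104 fold changes of named members by more than their error, all of them in low genes, such as ADAM28 in early atresia, to 1.87 from 3.69. A pseudocount of 1 moved none by that much. No paired analysis was possible because the tables hold 1 value per group, and for the same reason no replicate could be left out. Low means limit MMP1, MMP7, MMP13, TIMP4 and the 19 members below 10 normalized counts, in which a difference of several fold could pass unseen.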

Other observations

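Several members lie next to each other in the RefSeq gene table of assembly NDDB_SH_1. A run of 8 MMP genes on chromosome 16 holds MMP7, MMP20, MMP27, MMP8, MMP1, MMP3, MMP12 and MMP13, in that order, with at most 3 other coding genes between neighbours. MMP12 was the member of this run that rose in the authors' deposited tables, while MMP3, its neighbour, and MMP8, MMP20 and MMP27 were listed at 0 in every group. ADAMTS1 and ADAMTS5, adjacent on chromosome 1, had log2 changes of 2.64 and 2.35 in early atresia in the authors' deposited table, of which the ADAMTS1 value passed. ADAM9 and ADAM32 are also adjacent on chromosome 1, with log2 changes of -0.50 and -0.54 in early atresia in the authors' deposited table, and neither passed.

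LOC102405621, which the same RefSeq table names ADAM18, a germ line ADAM, lies outside the rule used for members. It was listed at 0 in healthy and late atresia and at 0.79 in early atresia in the authors' deposited tables.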
